A study of Mus musculus with 6 samples.

Results

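The 784 regions described here are peaks of open chromatin that lay high in the peak list of Bcl11b-sufficient regulatory T cells (Treg cells), away from the ends of protein-coding genes, with no peak nearby in the list of Bcl11b-deficient Treg cells. They were chosen by their place in the first 50% of the rows of the WT list and by the lack of a KO peak within 500 bp. The midpoint also had to lie more than 1 kb from both ends of every protein-coding gene and either inside such a gene or at most 100 kb from one. They are 784 of 38258 WT peaks, and the KO list holds 36182 peaks. They are called distal WT-only peaks below. Because the rule used the 2 lists themselves, the absence of a KO peak at these sites is a description and not a result.

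Treg cells were sorted as CD4+YFP+ cells from spleen and draining lymph nodes of mice on the C57BL/6 background. In the KO group (3 samples) both Bcl11b alleles were flanked by recombination sites (f/f), in the WT group (3 samples) both were wild type (w/w), and both groups carried Foxp3-IRES-YFP-Cre, which expresses Cre recombinase and YFP from the Foxp3 gene. Both groups therefore carry the reporter and the recombinase, and deletion is driven in cells that express Foxp3. The labels give neither the age of the mice, nor whether animals were pooled, nor which part of Bcl11b is deleted. From each sample 100000 cells were taken for ATAC-seq, in which a transposase inserts adapters into accessible DNA. Each group has 1 list of peaks for its 3 samples together, on mouse build mm10, with no height and no read counts. No spread between replicates can be measured, the depth per sample is unknown, and no test of genotype was possible for any comparison below. Intervals are exact Clopper-Pearson 95% intervals over peaks, which cover counting error only and treat neighbouring peaks as independent.

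Distal accessible sites in T cells are mostly enhancers, where transcription factors bind and act on a promoter that may lie far away or inside another gene. Bcl11b is a zinc-finger transcription factor of T lineage cells that acts as a repressor or an activator depending on the site, and in Treg cells Foxp3 works together with such factors at enhancers that were largely open before Foxp3 was expressed. A peak absent from one list shows that it was not called there, which is weaker than showing that the site was closed.

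The cell identity in the labels was compared with marker genes. Of 7 Treg markers, 6 had a peak inside the gene or within 1 kb in the KO list and 6 in the WT list, the exception being Tnfrsf18. Cd8a, Ncr1, Cd79a, Ms4a1, Lyz2, Csf1r, Itgam, Alas2 and Pf4 had none in either list, whereas Pax5, Ebf1, Cebpa, Spi1, Eomes, Cd8b1, Klf1 and Itga2b had at least 1 in each. Klrb1c and Gata1 had 0 in the KO list and 1 in the WT list. Distal WT-only peaks were assigned to Treg markers 4 times (Il2ra, Ctla4 and Ikzf2) and 0 times to the 20 markers of CD8 T, NK, B, myeloid, erythroid and megakaryocyte cells. Distal KO-only peaks were assigned to Treg markers 6 times and to the other markers 2 times, at Klrb1c and Itgam. These assignments are not read as evidence of cell identity, because the distal peaks at each set of markers are not given as a denominator. The lists of B cell, myeloid, CD8 T and NK, and erythroid and megakaryocyte genes used below held few distal WT peaks high in the list. Their numbers were 5, 8, 5 and 2, and over all genes 8.09% of such peaks were WT-only.

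Some distal WT-only peaks lay at transcription starts inside genes, and these are the ones whose sequence can be shown. Of the 759 distal WT-only peaks on chromosomes with promoter windows in the table used, 36 (4.74%, interval 3.34 to 6.51%) overlapped a RefSeq promoter window, which runs from 250 bases before a transcription start to 50 after it. The share was 1.99% (1.22 to 3.06%) among 1005 distal KO-only peaks, chosen by the same rule with the lists exchanged, and 11.7% among 8162 distal shared peaks, which are WT peaks of the first 50% of rows that overlap a KO peak. The sets were not matched for place in the list. Among the distal WT-only peaks of the first 25% of rows the share was 12.2% (9 of 74, 5.71 to 21.8%), so the lower share is not read as a trait of WT-only peaks. Windows of 193 bp around each midpoint were used for all sets here, since WT peaks are 219 bp and KO peaks 193 bp wide. Of the 36 peaks, 25 overlapped a window of a protein-coding gene, in each case a start that is not at the gene's outer end, and the others overlapped starts of long noncoding RNAs such as Malat1, 4833407H14Rik and 1810041H14Rik.

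The sequences below are the bases upstream of the start that lie inside the distal WT-only peak, for the genes of the T cell lists with at least 20 such bases (Rbpj, Gata3, Bbc3, Ccr6, Entpd1), for Mapk14, where the whole peak lies upstream of a start, and for Cnr1, the one farthest from any KO peak. They are from RefSeq, build GRCm38.p6 (mm10), 5′ to 3′ on the strand of the gene. Capitals mark matches to the motifs searched.
Rbpj, chr5:53590412-53590485, plus strand: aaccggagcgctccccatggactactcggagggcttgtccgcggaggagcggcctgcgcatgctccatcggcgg
Gata3, chr2:9878601-9878621, minus strand: ccttaagttgcgtcgcgccac
Bbc3, chr7:16309333-16309524, plus strand: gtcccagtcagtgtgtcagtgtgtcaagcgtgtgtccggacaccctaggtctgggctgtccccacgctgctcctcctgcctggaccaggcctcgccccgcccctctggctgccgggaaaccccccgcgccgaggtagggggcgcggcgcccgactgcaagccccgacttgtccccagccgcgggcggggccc
Ccr6, chr17:8242414-8242525, plus strand: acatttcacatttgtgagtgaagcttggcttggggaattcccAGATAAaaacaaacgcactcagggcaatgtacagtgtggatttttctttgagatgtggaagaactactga
Entpd1, chr19:40659741-40659769, plus strand: cctcccacaagccctagggtctgttatat
Mapk14, chr17:28692334-28692552, plus strand: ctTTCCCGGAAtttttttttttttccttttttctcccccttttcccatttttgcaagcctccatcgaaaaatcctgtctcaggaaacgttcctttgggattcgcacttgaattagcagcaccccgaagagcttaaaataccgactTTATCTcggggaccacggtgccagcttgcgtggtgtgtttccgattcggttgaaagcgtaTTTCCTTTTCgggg
Cnr1, chr4:33924394-33924611, plus strand: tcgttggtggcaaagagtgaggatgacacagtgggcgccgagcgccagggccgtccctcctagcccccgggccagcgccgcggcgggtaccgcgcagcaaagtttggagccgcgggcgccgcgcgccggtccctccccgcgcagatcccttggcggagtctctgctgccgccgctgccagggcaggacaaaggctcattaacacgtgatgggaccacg

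These starts differed in base composition. The stretches at Bbc3 and Cnr1 were 73.4% and 70.6% G and C, and that of Rbpj 70.3%, while those at Ccr6 and Mapk14 had 41.1% and 46.1%. Rbpj encodes the nuclear effector of Notch signalling, and its peak stood at row 5552 of the WT list, 1.03 kb from the nearest KO peak. Gata3 encodes a factor of T cell and Th2 identity, and its peak stood at row 6233, 1.02 kb from a KO peak. Bbc3, which encodes the pro-apoptotic protein Puma, had its peak at row 9303 with the nearest KO peak 3.43 kb away. The peaks at Ccr6, a chemokine receptor of Th17 cells and of a part of Treg cells, and at Entpd1, the ectonucleotidase CD39, stood late in the first 50% of rows, at rows 18366 and 18675. Their nearest KO peaks were 10.1 and 1.99 kb away.

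The motifs were searched on both strands in 1 promoter window for each of the 36 peaks, the one with the longest overlap, and in all 32851 windows of the same 300 bases. They were CAGGAAGT for ETS, TGTGGTT for RUNX, CTTTGAT for TCF and LEF, TGANTCA for AP-1, TGTTTAC for forkhead, TGGAAAA for NFAT and TTCCNNGAA for STAT5. Further ones were AGATAA for GATA, AGGTGTGA for T-box, CAGCTG and CACCTG for E-boxes, TGACCA for the site known from human BCL11A, GGGNGTGG for KLF, AAAGGTCA for NR4A, GCGTGGGNG for EGR and TGACGTCA for CREB. CTCF, IRF, NF-kB and BATF with IRF were searched by longer patterns, and AP-1 letters are part of the last of these. The GATA letters stood in 6 of the 36 windows (16.7%, interval 6.37 to 32.8%) and in 11.2% of all windows. The IRF pattern stood in 3 (8.33%, 1.75 to 22.5%) against 3.44% of all windows, STAT5 letters in 1 (2.78%) against 4.81%, and TGACCA in 3 (8.33%) against 13.6%. KLF letters stood in 9 windows (interval 12.1 to 42.2%) against 17.6%. For each of the 20 motifs the interval of the 36 windows held the share of all windows, and 7 motifs were in none of the 36. A match needed every fixed letter of a pattern, so a window without one may still hold a variant site of the factor. Matches in a window may also lie outside the peak. The overlap of window and peak was 19 bp at Fam169b and 27 bp at Lmo4, against 219 bp at Mapk14.

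Distal WT-only peaks were a small part of the distal peaks at this height of the list. Of the 9690 distal WT peaks in the first 50% of rows, 8.09% had no KO peak within 500 bp, against 23.6% of all WT peaks. In the exchanged comparison 1048 of 8973 distal KO peaks were without a WT peak (11.7%), against 18.3% of all KO peaks. Among the 19129 WT peaks of the first 50% of rows, 994 had no KO peak within 500 bp, 148 of these lay at gene ends and 62 beyond 100 kb of any gene. Another 996 did not overlap a KO peak but had one within 500 bp. These shares are set by the rule and are read only as the size of the set.

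Within the first 50% of rows, distal WT-only peaks became more frequent towards the lower rows. There were 0 of 920 distal WT peaks in the first 10% of rows, where a floor of 3 counts is a share of 0.326% and the upper bound of the exact interval is 0.40%. The share was 2.07% (1.41 to 2.93%) between 10 and 20% of rows, 6.26% (5.25 to 7.39%) between 20 and 30%, 8.38% (7.31 to 9.54%) between 30 and 40% and 15.1% (13.8 to 16.5%) between 40 and 50%. The first distal WT-only peak stood at row 4036, at 10.5% of the list, and the median place was 41.0%. Distal KO-only peaks began earlier, at row 19, and made up 2.30% (1.46 to 3.42%) of distal KO peaks in the first 10% of rows. The order of rows is taken as a rank of peak strength, which the labels do not state.

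**Figure D1:**
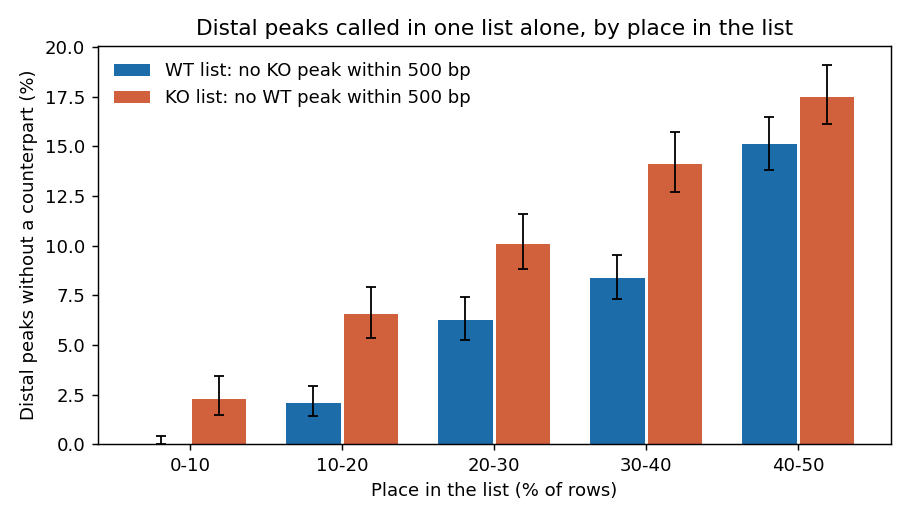
Share of distal peaks with no peak of the other list within 500 bp (y axis, %) in each 10% of rows of the list (x axis), for the WT list and the KO list, with exact 95% intervals over peaks as error bars. The WT share is 0 in the first 10% of rows and 15.1% between 40 and 50%, and the KO share is 2.30% and 17.5% there.

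Near the limits of the rule, the closest KO peak lay 501, 503 and 504 bp from peaks inside it at Sik3, Sh3rf1 and Armc3. Just outside it, the gap was 497, 499 and 500 bp at Trps1, Sipa1l1 and Arid5b. The last rows inside were 19095 at Ext1, 19102 at Ano6 and 19108 at Mrpl39, and the first outside were 19138 at Ppp2r5a, 19154 at Atp6v0d2 and 19171 at Cd9. By distance to a gene end, the nearest inside were at 1.01 kb at Aftph and 1.02 kb at Bbc3 and Arhgap45, and the nearest outside at 0.986 kb at Lrrc56 and 0.984 kb at Gbp4.

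Most distal WT-only peaks stood in neighbourhoods that the KO list also held. The nearest KO peak was a median of 2.77 kb away (10th to 90th percentile 0.792 to 19.4 kb). For 595 of 784 (75.9%, 72.7 to 78.8%) that KO peak was itself shared with the WT list, and for 736 (93.9%, 92.0 to 95.5%) it was assigned to the same gene. A shared WT peak lay within 10 kb of 573 (73.1%, 69.8 to 76.2%). The matching shares of distal KO-only peaks, with the lists exchanged, were 76.7%, 90.4% and 72.1%. A gap of 0.5 to 1 kb was found at 135 peaks (17.2%), one over 10 kb at 141 (interval 15.4 to 20.9%) and one over 50 kb at 29 (3.70%, 2.49 to 5.27%). Distal KO-only peaks had a median gap of 3.10 kb to the nearest WT peak, and 61 of 1048 (5.82%, 4.48 to 7.41%) had one over 50 kb. WT-only peaks of the first 25% of rows (75 peaks) had a median gap of 1.76 kb, against 2.96 kb for the other 709.

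**Figure D2:**
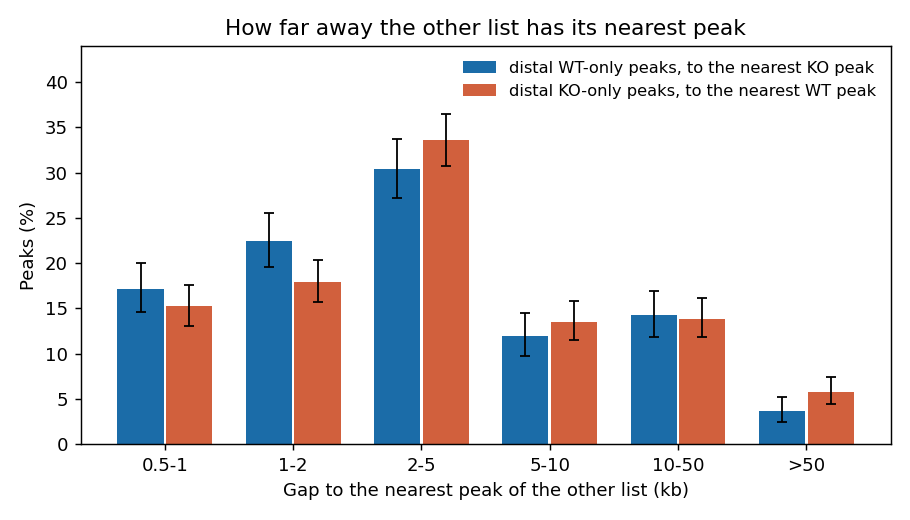
Gap from each distal WT-only peak to the nearest KO peak and from each distal KO-only peak to the nearest WT peak (x axis, kb), as a share of the set (y axis, %), with exact 95% intervals. Gaps of 2 to 5 kb were the most frequent class in both sets, at 30.4% and 33.6%, and no class reaches below 0.5 kb because of the rule.

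A few distal WT-only peaks stood far from every KO peak. The widest gap was 331 kb, at chr14:10784173-10784391 inside Fhit, a nucleotide hydrolase gene that spans a common fragile site, and the second was 257 kb, at chr5:71903380-71903598 inside Gabrb1, which encodes a GABA receptor subunit. A peak inside Hdac9 (chr12:34664973-34665191) had a gap of 137 kb. Vtcn1, which encodes the co-inhibitory ligand B7-H4, had a peak with a gap of 97.0 kb, and another WT peak lay 0.766 kb from it. Side-by-side pairs of WT-only peaks were also found inside Sox5 (gaps of 88.8 and 89.5 kb, 0.566 kb apart) and Immp2l (79.8 and 80.5 kb, 0.533 kb apart). The gene had no KO peak at all in 22 of the 784 assignments (2.81%), against no WT peak in 55 of the 1048 for distal KO-only peaks (5.25%).

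By location, the share inside genes was higher for distal WT-only peaks than for distal shared ones, which were not matched to them for place in the list. Of the 784, 538 lay inside a protein-coding gene (68.6%, 65.2 to 71.9%), against 65.7% (62.8 to 68.6%) of distal KO-only peaks and 59.6% (58.6 to 60.7%) of distal shared peaks. The intervals of WT-only and shared peaks did not overlap, and those of WT-only and KO-only peaks did. The median gene holding a WT-only peak was 92.2 kb long, that holding a KO-only peak 75.2 kb and that holding a shared peak 81.2 kb. Where the strand of the gene was known (413 peaks), 135 (32.7%, 28.2 to 37.4%) lay in the first 20% of the gene from its 5′ end and 53 (12.8%) in the last 20%. Among KO-only peaks 30.3% and among shared ones 29.8% lay in the first 20%, inside that interval. Exons and introns were not told apart, since no exon table was used here.

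The 246 distal WT-only peaks between genes lay mostly within 50 kb of a gene. Of them, 106 (43.1%, 36.8 to 49.5%) lay 1 to 10 kb from a gene, 101 lay 10 to 50 kb and 39 lay 50 to 100 kb from one. A long noncoding RNA gene held 59 of the 246 (24.0%, 18.8 to 29.8%), with KO-only peaks at 19.5% and shared ones at 23.1%. The midpoint lay within 1 kb of a RefSeq transcription start, internal and noncoding ones included, in 67 of 759 (8.83%, 6.91 to 11.1%), against 6.47% (5.03 to 8.17%) of KO-only and 16.8% of shared peaks. The median distance to a start was 14.3 kb, against 12.9 and 14.2 kb. Not every gene had a listed start, so the shares within 1 kb could be higher and these distances shorter. These sets, too, were not matched for place in the list.

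Across chromosomes the WT-only share of distal WT peaks was highest among the autosomes on chromosome 3, with 66 of 571 (11.6%, 9.05 to 14.5%), and lowest on chromosome 11, with 25 of 473 (5.29%, 3.45 to 7.70%). The KO-only share of distal KO peaks was the lowest autosomal one on chromosome 3 (32 of 434, 7.37%, 5.10 to 10.2%) and stood at 13.3% (10.5 to 16.4%) on chromosome 11. Chromosome 8 had 5.63% WT-only and 15.1% KO-only. On the X chromosome 11 of 170 distal WT peaks were WT-only (6.47%, 3.27 to 11.3%) and 3 of 131 distal KO peaks were KO-only (2.29%, 0.475 to 6.55%). These chromosomes were picked after their values were seen.

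Distal WT-only peaks were mostly alone. Within 50 kb of another lay 198 of the 784, in 87 groups, of which 18 held 3 or more, and 586 had none that near. The group of most peaks was at Prkch with 5 over 87.0 kb, and groups of 4 were found at Ubac2 over 67.5 kb, inside Ext1 over 35.6 kb, at Uck2 and Tmco1 over 70.7 kb, and at Tigit and Zbtb20 over 83.7 kb. In the Ext1 group the KO list had 0 peaks across the whole span, and likewise in a group of 3 over 20.6 kb at Nck2. In the Prkch group it had 9.

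A peak was assigned to the protein-coding gene that held its midpoint (the shortest where several did), otherwise to the nearest one, which does not show which gene the site acts on. The 784 distal WT-only peaks fell to 652 genes, 4.49% of the 14531 genes with any peak, and 1048 distal KO-only peaks to 859 genes (5.91%). Of the 652 genes, 551 had 1 peak, 76 had 2, 21 had 3, 2 had 4 and 2 had 5. Both kinds of peak were assigned to 169 genes, which is 25.9% of the WT-only genes and 19.7% of the KO-only genes. Among 101 genes with 2 or more WT-only peaks, 64 had no distal KO-only peak. Distal shared peaks in the first 50% of rows were absent at 145 of the 652 genes.

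Prkch, which encodes the protein kinase C isoform eta, had 5 distal WT-only, 4 distal KO-only and 11 distal shared peaks over its 193 kb on chromosome 12. Its WT-only peaks lay at chr12:73611778-73611996, chr12:73633844-73634062, chr12:73663384-73663602, chr12:73679441-73679659 and chr12:73698519-73698737, with KO peaks 0.579 to 6.44 kb away. WT-only and KO-only peaks stood between one another along the gene. Itpkb, an inositol trisphosphate kinase required in T cell development, had 3, 4 and 8. Nck2 and Ablim1, an adaptor and an actin-binding protein, each had 3 WT-only and 2 KO-only peaks. In all, 12 genes had 2 or more of each kind, among them Cd247, the zeta chain of the T cell receptor, and Sla, an adaptor that lowers receptor levels.

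Ext1, a heparan sulfate polymerase gene, had 5 distal WT-only, 0 distal KO-only and 10 distal shared peaks. Of its WT-only peaks, 4 stood together at chr15:53292853-53293071, chr15:53308679-53308897, chr15:53310986-53311204 and chr15:53328260-53328478, with gaps of 7.48 to 27.1 kb to the nearest KO peak. Fhit had 4, 0 and 2 and Ubac2, a protein of the endoplasmic reticulum, 4, 1 and 7. With 3 WT-only and 0 KO-only peaks stood Lrig1, which restrains growth factor receptors, Ago2, the Argonaute protein of microRNA silencing, Immp2l, Pik3r1, Commd8, Ppp2r5c, Sh3rf1, Arid5b, Ahr, Tfpi and Foxp1. Coro2a, Emb, Ets1, Nfkb1, Tigit, Pip4k2a and Kcnq5 had 3 and 1.

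**Figure D3:**
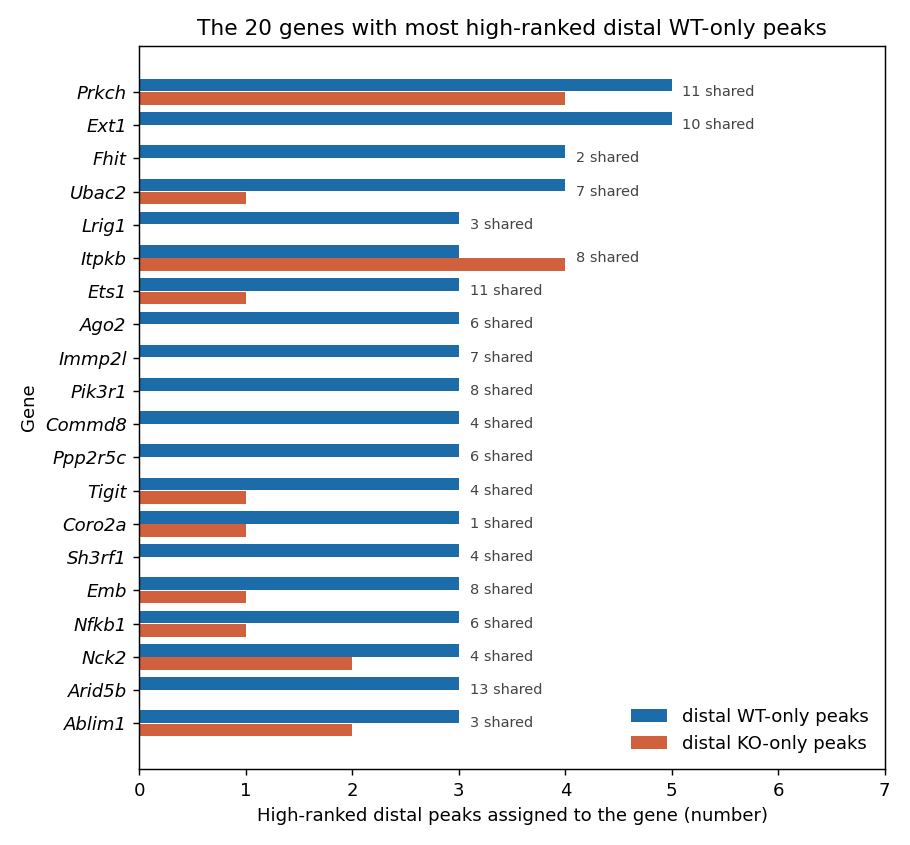
Number of high-ranked distal WT-only and distal KO-only peaks (x axis) assigned to 20 of the 25 genes with 3 or more distal WT-only peaks (y axis), ties being kept by the lowest row, with the number of distal shared peaks written beside each pair of bars. Of the 20 genes, Itpkb alone has more KO-only peaks than WT-only ones (4 and 3), and Arid5b has 13 shared peaks, the most of those plotted.

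**Figure D4:**
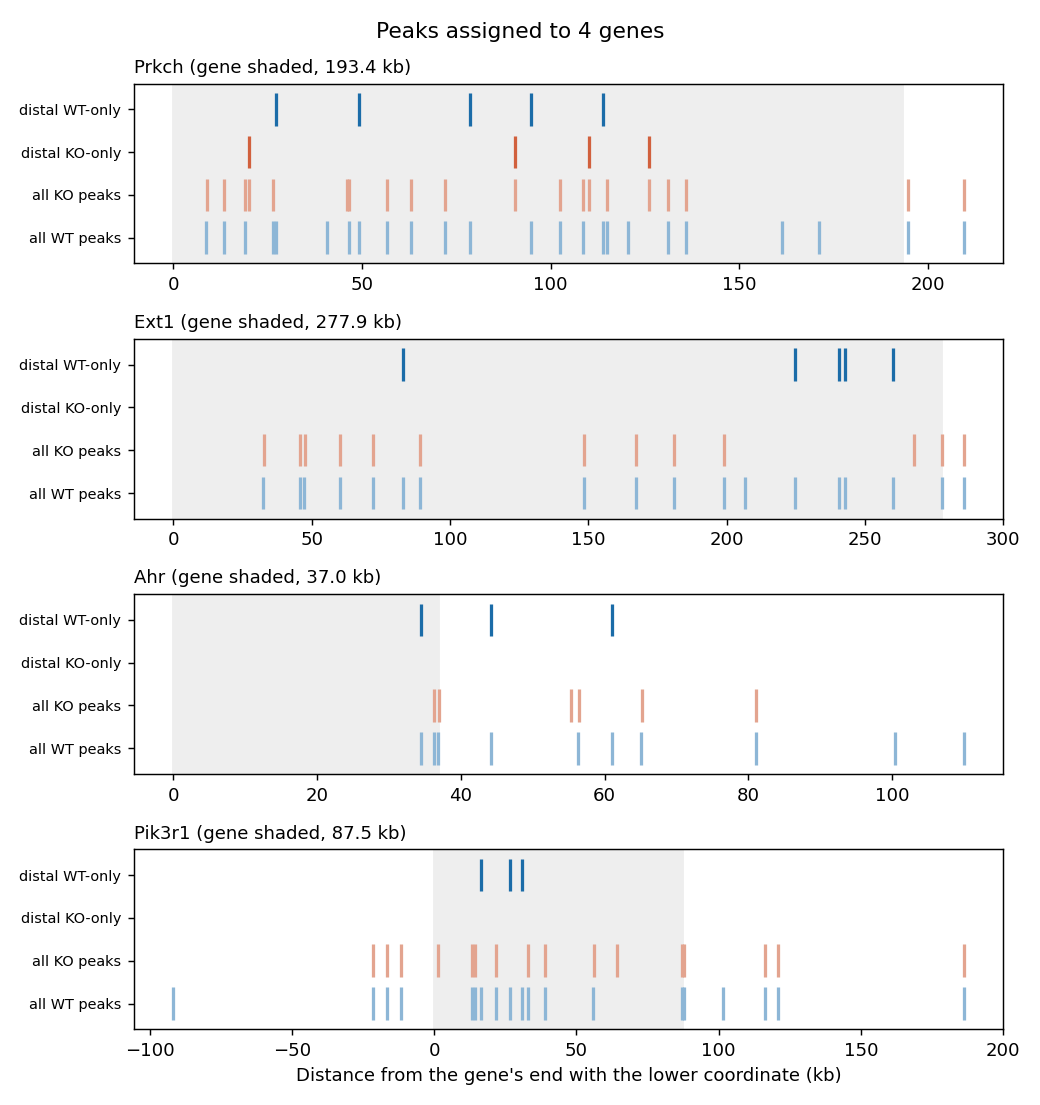
Positions of peaks assigned to Prkch, Ext1, Ahr and Pik3r1 as distance from the gene's end with the lower coordinate (x axis, kb), in rows for distal WT-only peaks, distal KO-only peaks, all KO peaks and all WT peaks, the gene being shaded. At Ext1 4 WT-only peaks stand in a stretch with no KO peak, while at Prkch both kinds are interspersed among shared peaks.

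Each of the 10 distal WT-only peaks highest in the list had a KO peak within 3 kb. The first at row 4036 lay inside Fubp1, a regulator of Myc transcription, with its midpoint 1.63 kb from a gene end and a KO peak 0.827 kb away. The next were near Lmntd1 (row 4488, gap 0.672 kb) and inside Cblb (row 4968, gap 0.522 kb), the ubiquitin ligase that restrains T cell activation. Chd1, a chromatin remodeller, Ywhaz, a 14-3-3 protein, Pim3, a kinase, Igsf8, Cdkn1b, the cell cycle inhibitor p27, and Itga6, an integrin chain, followed at rows 5069 to 5440. Their gaps ranged from 0.534 kb at Ywhaz to 2.59 kb at Itga6. Rbpj completed the first 10. By distance to a gene end, the midpoints at Cdkn1b, Chd1, Pim3 and Igsf8 lay 1.10, 1.17, 1.36 and 2.31 kb away. At Ywhaz, Itga6, Cblb, Rbpj and Lmntd1 that distance was 8.54, 23.4, 29.3, 34.7 and 49.3 kb.

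At Bcl11b itself 2 distal WT-only peaks lay in the gene body, at chr12:107928126-107928344 (row 15046) and chr12:107940819-107941037 (row 18478), with gaps of 6.37 and 19.1 kb and no distal KO-only peak. The gene had 2 distal shared peaks and 11 peaks in each whole list. Whether these sites fall in the deleted part of the gene cannot be told from the labels.

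Genes of the Treg signature held both kinds of peak. Of 30 genes of the Treg signature, 10 had a distal WT-only and 11 a distal KO-only peak. Over their distal peaks in the first 50% of rows, 13 of 90 WT peaks were WT-only (14.4%, 7.92 to 23.4%, against 8.09% over all genes), and 17 of 84 KO peaks were KO-only (20.2%, 12.3 to 30.4%, against 11.7%). The interval of the WT-only share lay partly below the share over all genes, and that of the KO-only share wholly above it. The intervals are not a test here, because earlier results were known when the list was chosen and some genes gave several peaks. Counts for the lists that follow have the same denominators, the distal WT peaks and the distal KO peaks of the first 50% of rows at the genes of the list. With no KO peak allowed within 5 kb, the WT-only shares of the 14 T cell lists ranged from 0 to 9.52%. Foxp3 and the cytokine gene Il10 had 0 distal WT-only peaks. Il2ra, the high-affinity IL-2 receptor chain, had 2 inside the gene, at chr2:11655260-11655478 (row 10193, gap 1.64 kb) and chr2:11657686-11657904 (row 10959, gap 4.06 kb), beside 1 KO-only peak at chr2:11651588-11651780 and 3 shared ones. Ctla4, an inhibitory receptor, had 1 at chr1:60902613-60902831 (row 13697, gap 3.04 kb), and Ikzf2, encoding Helios, had 1 WT-only and 3 KO-only peaks. Tigit, another inhibitory receptor of Treg cells, had 3 assigned peaks, 2 of them inside the gene and the third 43.4 kb away at chr16:43708395-43708613. The remaining Treg genes with a WT-only peak were Tnfrsf9, Lrrc32, Entpd1, Socs2, Prdm1 and Gata3, with 1 each. Lrrc32 encodes GARP, the surface anchor of latent TGF-beta on Treg cells, and its peak at chr7:98491884-98492102 stood at row 8421 with a gap of 1.93 kb.

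At factors and receptors of naive and resting T cells the WT-only share was above the KO-only share, the order opposite to that over all genes, though the intervals overlapped. Of their distal WT peaks 17 of 133 were WT-only (12.8%, 7.63 to 19.7%, against 8.09% over all genes). Of their distal KO peaks 6 of 109 were KO-only (5.50%, 2.05 to 11.6%, against 11.7% over all genes). The WT-only interval included the share over all genes, and the KO-only interval ended just below it. WT-only peaks were assigned to 11 of 20 genes and KO-only peaks to 5. Ets1, an ETS factor of T cell quiescence and Treg development, had 3 inside the gene, at rows 6276, 8555 and 12233 with gaps of 2.22, 10.2 and 8.71 kb. Foxp1, a forkhead factor that maintains quiescence, had 3 among 15 shared peaks, at chr6:99031366-99031584, chr6:99341046-99341264 and chr6:99350592-99350810, and no KO-only one. Bach2, a repressor of effector differentiation, had 2 among 16 shared peaks and Il6st, the gp130 chain of the IL-6 receptor, 2 among 4. Foxo1, Lef1, Satb1, Klf3, S1pr1 and Il6ra had 1 each, of which Satb1 and Klf3 also had a KO-only peak. In the first 25% of rows the order was not kept, at 3.51% WT-only and 3.77% KO-only. The list was chosen with earlier results of these data known, so the count is not independent evidence of a direction.

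Chromatin regulators had WT-only peaks at 8 of 30 genes and KO-only peaks at 6. No gene of the list had both, as against 25.9% of all genes with a WT-only peak, and among so few genes nothing is read from this. WT-only peaks were 11 of 97 (11.3%, 5.80 to 19.4%) and KO-only peaks 6 of 76 (7.89%, 2.95 to 16.4%), intervals that include the shares over all genes. Arid5b, a DNA-binding partner of a histone demethylase, had 3 among 13 shared peaks, of which 2 stood side by side at chr10:68238968-68239186 and chr10:68239592-68239810. Hdac9, a class IIa histone deacetylase, had 2, and Arid1a, Chd1, Chd2, Chd7, Kdm6b and Hdac4 had 1 each.

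T cell receptor signalling genes and their negative regulators had WT-only shares above that over all genes, with intervals that included it. The signalling genes had 10 of 75 (13.3%, 6.58 to 23.2%) WT-only and 12 of 76 (15.8%, 8.43 to 26.0%) KO-only peaks. Cd247 had 2 WT-only peaks, one of them early in the list at chr1:165844390-165844608 (row 7132, gap 3.33 kb), and 2 KO-only ones. Prkcq, the kinase that couples the receptor to NF-kB, had 2 WT-only peaks among 11 shared and Cd6, a receptor that tunes activation, 2 with no distal shared peak. Zap70, Lcp2 and Cd28 had 1 each. Among negative regulators 8 of 62 (12.9%, 5.74 to 23.9%) were WT-only and 10 of 57 (17.5%, 8.75 to 29.9%) KO-only. Cblb and Sla had 2 WT-only peaks each and Pag1, Ptpn22, Ubash3a and Sla2 had 1.

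NFAT, NF-kB and AP-1 factors had 8 of 59 WT-only (13.6%) and 8 of 57 KO-only peaks (14.0%, 6.26 to 25.8%). Nfkb1, which encodes the p50 subunit, had 3 inside the gene, at rows 11501, 15468 and 16115, and Rel, the c-Rel subunit required for Treg development, had 1 at chr11:23754289-23754507 with a gap of 16.7 kb. Bach1, a repressor related to Bach2, had 2 among 7 shared peaks, and Irf4 and Nfkbia had 1 each.

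In the helper programmes other than Th1, Ahr had 3 of the 7 WT-only peaks, the most of any gene. The list of Th2, Th17 and follicular helper genes had 7 of 42 (16.7%, 6.97 to 31.4%) WT-only and 4 of 27 (14.8%, 4.19 to 33.7%) KO-only peaks. That order turned in 4 of 10 settings, the main one included. Ahr, the aryl hydrocarbon receptor, had 3 at chr12:35532380-35532598, chr12:35542125-35542343 and chr12:35558882-35559100, with gaps of 1.57, 7.12 and 3.94 kb, beside 3 shared and 0 KO-only ones. Tox, a nuclear factor of chronically stimulated T cells, had 2 side by side inside the gene among 12 shared peaks, and Rora and Ccr6 had 1 each. Th1 and cytotoxic genes had 2 of 29 WT-only peaks (6.90%, 0.846 to 22.8%), at Ifng and Hopx, and 8 of 45 KO-only peaks (17.8%).

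Among TGF-beta and Notch genes 6 of 46 distal WT peaks were WT-only (13.0%, 4.94 to 26.3%) and 10 of 53 distal KO peaks were KO-only (18.9%, 9.44 to 32.0%). Tgfbr2, the ligand-binding TGF-beta receptor, had 2 WT-only peaks and no KO-only one, at chr9:116091245-116091463 with a gap of 22.9 kb and chr9:116187479-116187697 with 1.43 kb. Smad3 and Maml2, effectors of the TGF-beta and Notch pathways, each had 1 WT-only and 3 KO-only peaks. The cytokine receptor and JAK-STAT list, the homing list and the survival list had WT-only shares close to the 8.09% over all genes. Cytokine receptor and JAK-STAT genes had 5 of 62 WT-only (8.06%, 2.67 to 17.8%), at Il21r, Il10rb, Ifngr2, Il12rb2 and Stat6, and 9 of 62 KO-only peaks (14.5%). Homing genes had 4 of 44 (9.09%, 2.53 to 21.7%), at Itgb8, the integrin chain that activates TGF-beta, Cd44, Selplg and Elmo1, and 7 of 43 KO-only ones (16.3%).

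Ikaros, E protein, Runx and ETS factors had 5 WT-only peaks of 65 (7.69%, 2.54 to 17.0%) and 14 KO-only peaks of 76 (18.4%, 10.5 to 29.0%), against 8.09% and 11.7% over all genes. When only overlapping KO peaks were barred, the WT-only share of the list was 18.5%. Distal WT-only peaks over all genes then numbered 1246 in place of 784, so the other shares given here do not apply to that setting. The WT-only share of the list was above its KO-only share in 0 of 10 settings, the main one included. Under the 500 bp rule the WT-only peaks were at Bcl11b, Elf1, Fli1 and Zbtb7b. In the list of mTOR, PI3K and metabolism genes all 3 WT-only peaks among 56 distal WT peaks (5.36%) were at Pik3r1, the regulatory subunit of PI3K. They stood within 14.6 kb of each other inside the gene, at rows 9589, 9892 and 11719, with gaps of 1.84 to 4.98 kb. KO-only peaks were 8 of 59 in that list (13.6%). Survival genes had 3 of 40 (7.50%, 1.57 to 20.4%), at Bbc3, Cflar and Bcl2a1b, and 5 of 40 KO-only peaks (12.5%). Bcl2a1b belongs to a family of near-identical copies, so its call is uncertain.

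**Figure D5:**
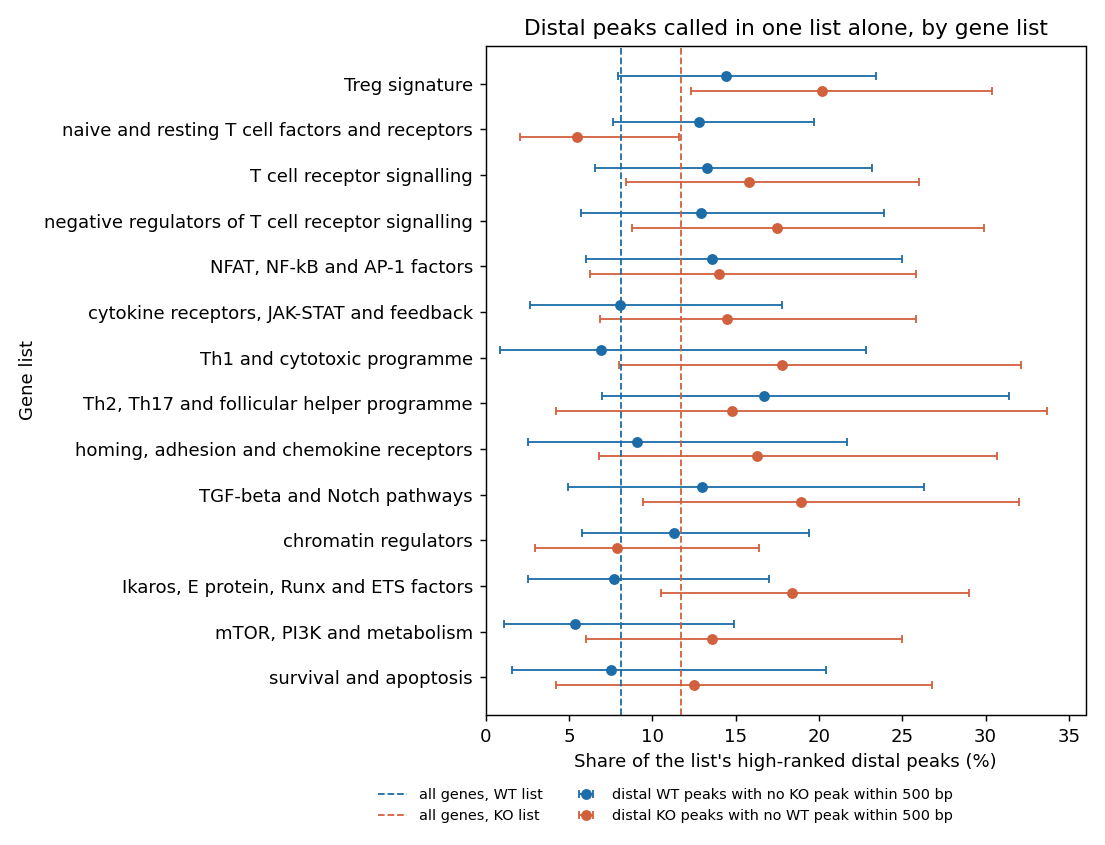
Share of a gene list's high-ranked distal peaks (x axis, %) with no peak of the other list within 500 bp, for WT and KO peaks in each list with at least 20 peaks of both kinds (y axis), with exact 95% intervals and dashed lines at the shares over all genes (8.09% and 11.7%). Naive and resting T cell genes, chromatin regulators and the helper genes other than Th1 are the lists where the WT share is the higher one. That order turned in 1 of 11, 0 of 11 and 4 of 10 settings, the main one included.

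Lists of other cell types held almost none of these peaks, and few distal peaks of any kind. B cell, myeloid, CD8 T and NK, and erythroid and megakaryocyte genes had 0 WT-only peaks among 5, 8, 5 and 2 distal WT peaks of the first 50% of rows. Among KO-only peaks there were 0 of 2, 2 of 11, 2 of 5 and 0 of 2. The non-lymphoid list had 1, assigned to the liver gene Alb from 8.04 kb away. Across all 19 lists, 76 of 395 genes had a distal WT-only and 96 a distal KO-only peak. Over all 14531 genes with any peak, 4.49% had a distal WT-only and 5.91% a distal KO-only peak, and the listed genes were not matched to them for their number of distal peaks.

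The second 50% of rows of the WT list holds none of the 784 peaks. The rule used the whole KO list, however, so the following counts of the same 2 lists are a description and support nothing about these genes. Distal peaks of the second 50% of rows with no peak of the other list within 500 bp numbered 6607 in the WT list and 4361 in the KO list, so that 60.2% were WT-only. At the genes with a distal WT-only peak and no distal KO-only peak in the first 50% of rows, 618 of 894 were WT-only (69.1%). The share was 59.4% at genes with both kinds, 60.1% at genes with neither and 54.6% at genes with a KO-only peak alone. Among the named genes, these later peaks numbered 13 WT-only and 0 KO-only at Hdac9, 10 and 4 at Foxp1, 6 and 2 at Immp2l, 5 and 0 at Arid5b, 5 and 3 at Prkcq and 5 and 2 at Rora. With 4 later WT-only peaks, Prkch and Itgb8 had 0 KO-only ones, Rbpj 1 and Ablim1 4. Bcl11b had 1 WT-only and 3 KO-only, Ikzf2 3 and 4, Ubac2 1 and 4, Ctla4 0 and 2, and Cd6 0 and 3.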

How the data were processed

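ATAC-seq peaks of 6 samples (3 KO, 3 WT) were read from 1 deposited list per group. The genome build was mm10, per the submitters' processing notes. Those notes also name HOMER 4.10.1, deepTools, SAMtools 1.3, HISAT2 2.1.0, FastQC, cutadapt 1.12 and Trim Galore 0.4.2, without their roles. How strict the peak threshold was, whether cut positions were shifted for the transposase and how replicates were joined is not stated there. The score that the authors deposited is 1 in every row and carries no height.

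All values come from scripts in Python 3.11.15, with pandas 2.3.3, numpy 2.4.6, scipy 1.17.1 and, for figures, matplotlib 3.10.9. The 21887 protein-coding genes and the promoter windows came from RefSeq GRCm38.p6, whose chromosomes are those of mm10, and no genome sequence was used, so the motif and base content planned for all peaks was computed for promoter windows alone, and exons and repeats were left out. Promoter windows of chromosome 18 are not used here, and some genes on other chromosomes have no window. The gap code was tested on simulated data, 600 peaks, against bedtools 2.31.1, with 0 differences.

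The regions and gene lists were chosen with earlier results of these data known. Genes named are Bcl11b, Foxp3, Il2ra, Ctla4, Ikzf2 and Il10, the 20 genes with most distal WT-only peaks (ties by lowest row), those of the first 10 peaks by row, and up to 3 per list. Further members of the lists and genes named for a wide gap, a limit of the rule, a promoter or a marker were chosen after their values were seen. Single values of a few listed genes are not reported here.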

Additional observations from a re-analysis of the deposited data

How the results depend on the processing

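No paired analysis was possible because each group has 1 peak list, and for the same reason no replicate could be left out. The number of distal WT-only peaks was 1246 when only overlapping KO peaks were barred, 235 with no KO peak within 5 kb, 75 in the first 25% of rows and 455 with a gene-end window of 10 kb. For distal KO-only peaks it was 348, 201 and 592 under the last 3 of these. Genes with 2 or more WT-only peaks then numbered 173, 21, 1 and 67. Listed genes with one were 26, 14 and 40 under the last 3. The share inside genes was 72.8% with the 5 kb gap and 74.7% in the first 25% of rows, where promoter overlap was 12.2%. The median gap was 1.08 kb with the overlap rule, 13.7 kb with the 5 kb gap and 1.76 kb in the first 25% of rows, and distal shared peaks were 3176 there and 5115 with the 10 kb window. Gaps, places and counts move by the construction of these settings. Another 40 values of these summary measures stayed within 1.5 times the count or inside the interval. Some of them could not move, such as the number of distal shared peaks when only the gap rule changed. Of the other values, mostly those of single genes and lists, 193 moved beyond these limits and 687 did not. The WT-only shares of the T cell lists ran from 0 to 21.4% over all settings. With 18091 rows from each list, a setting chosen after seeing the data, there were 640 WT-only and 1048 KO-only peaks. The WT-only share was the higher one at naive and resting genes in 10 of 11 settings and at chromatin regulators in 11 of 11. At helper genes other than Th1 it was so in 6 of 10. All settings cut the same 2 lists and share peaks, so counts of settings are not repeated evidence of a direction. Sequence in repeats could not be set apart.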
